A study of Mus musculus with 6 samples.

Results

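The genes described here are 10 makers and partners of hydrogen peroxide and superoxide production in mouse lung: the dual oxidases Duox1 and Duox2, their maturation factors Duoxa1 and Duoxa2, the secreted lactoperoxidase Lpo, the phagocyte oxidase subunits Cyba, Cybb, Ncf1 and Ncf4, and the oxidase Nox4. They were chosen by their biology with the measured difference between Foxa2-/- and control lungs already known, so every difference between the groups given for them below is a description and carries no test. A probe set, the group of short oligonucleotides that reads a transcript on the array, was taken where the platform annotation gave it exactly 1 gene symbol and that symbol was a member. By this rule 9 of the 10 genes had a level, from 14 of 45037 probe sets, and Duox2 is not analysed here. The study used Affymetrix arrays to compare RNA of whole lungs taken at postnatal day 15, with 3 arrays labelled wildtype control and 3 labelled Foxa2-/-, which are called null below. The design text calls the animals littermates and sets out to find how the loss of the forkhead factor Foxa2 bears on type 2 inflammation and goblet cell excess. Both groups carry the strain label SPC(+)Cre(-), and both had doxycycline (Dox) between embryonic days 6.5 and 12.5. SPC is the usual short form for surfactant protein C, whose promoter drives transgenes in the lung epithelium. That label would mean no Cre recombinase in either group and stands against the genotype label of the null lungs, so groups were taken from the genotype label. The labels do not say whether each array is a separate animal, and spreads between arrays may be partly technical.

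NADPH oxidases move electrons from NADPH across a membrane onto oxygen. Cybb (also called NOX2) and Cyba (p22phox) form the membrane core of the phagocyte oxidase, and Ncf1 (p47phox) and Ncf4 (p40phox) are cytosolic subunits that join it when macrophages, neutrophils or eosinophils are activated. In the airway the dual oxidases sit at the apical surface of epithelial cells and release hydrogen peroxide. Each needs its own maturation factor to leave the endoplasmic reticulum, and lactoperoxidase uses the peroxide to turn thiocyanate into the antimicrobial hypothiocyanite. Nox4 makes hydrogen peroxide without the cytosolic subunits and is known from fibroblasts, smooth muscle and endothelium.

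Duox1, Duoxa1, Duoxa2 and Duox2 lie side by side on mouse chromosome 2. The start sites in RefSeq (build GRCm38.p6) place Duox2 and Duoxa2 back to back with 673 bases between their starts, and Duoxa1 and Duox1 back to back with 1942 bases between theirs. RefSeq promoters were found for 9 of the 10 genes, all but Ncf4. The 250 bases before the start are shown for the pair with the largest differences, Duox1 and Duoxa1, for the phagocyte subunit Ncf1, and for Nox4, whose groups overlapped. They run 5′ to 3′ on the strand of the gene, and capitals mark the motif matches described after them.
Duox1, chr2:122315422-122315671, plus strand: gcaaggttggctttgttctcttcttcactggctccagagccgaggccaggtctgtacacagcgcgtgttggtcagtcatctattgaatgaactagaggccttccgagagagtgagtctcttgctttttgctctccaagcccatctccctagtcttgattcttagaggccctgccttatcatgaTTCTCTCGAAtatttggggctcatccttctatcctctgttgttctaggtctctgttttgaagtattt
Duoxa1, chr2:122313731-122313980, minus strand: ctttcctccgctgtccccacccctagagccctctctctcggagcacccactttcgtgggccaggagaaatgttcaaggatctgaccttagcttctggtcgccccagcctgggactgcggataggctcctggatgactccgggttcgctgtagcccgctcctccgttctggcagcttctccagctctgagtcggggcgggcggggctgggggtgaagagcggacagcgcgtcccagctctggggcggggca
Ncf1, chr5:134229626-134229875, minus strand: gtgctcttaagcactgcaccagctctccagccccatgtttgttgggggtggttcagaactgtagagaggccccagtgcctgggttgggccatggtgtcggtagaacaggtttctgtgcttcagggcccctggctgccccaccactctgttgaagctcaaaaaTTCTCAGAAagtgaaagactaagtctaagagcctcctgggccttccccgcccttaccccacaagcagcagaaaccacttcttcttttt
Nox4, chr7:87246399-87246648, plus strand: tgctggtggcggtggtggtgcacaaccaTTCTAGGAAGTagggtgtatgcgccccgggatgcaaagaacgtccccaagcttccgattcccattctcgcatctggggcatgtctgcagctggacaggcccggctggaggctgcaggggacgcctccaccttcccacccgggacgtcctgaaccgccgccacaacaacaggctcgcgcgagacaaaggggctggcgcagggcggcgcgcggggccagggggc

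The windows were searched on both strands for 6 motifs. The STAT6 palindrome, bound by the factor that interleukins 4 and 13 activate, is TTC and GAA with any 4 bases between them, and TTCNNNGAA is bound by other STAT dimers. The forkhead core is TGTTTAC with the variant TGTTTGC. The core of the myeloid factor PU.1 is AGGAAGT, and that of antioxidant response elements is TGACNNNGC. The Duox1 window held the STAT6 palindrome as TTCTCTCGAA, 67 to 58 bases before the start, and 5.85% of 32851 promoters of that length held it. The Ncf1 window held TTCNNNGAA as TTCTCAGAA, 88 to 80 bases before the start, a motif present in 7.02% of promoters. In the Nox4 window TTCTAGGAA, 222 to 214 bases before the start, overlapped AGGAAGT at 218 to 212, a motif present in 7.69%. None of these letters occurred in the windows of Duoxa1, Duox2, Duoxa2, Lpo, Cyba or Cybb, and the forkhead and antioxidant motifs (3.17%, 4.3% and 10.2% of promoters) were in none of the 9. These matches describe the sequence and are not evidence of binding. Base composition ran from 34.0% GC before Cybb to 67.2% before Nox4, with 65.6% before Duoxa1, 47.6% before Duox1 and a median of 52.4% over all promoters.

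Levels are given on the log2 scale as deposited, where 1 unit is a factor of 2 in signal, and levels of different probe sets cannot be set against each other. Foxa2 itself read 10.28, 10.56 and 10.28 in control replicates 1 to 3 and 7.72, 5.38 and 5.13 in null replicates 1 to 3, and null replicate 1 kept the most signal. Its difference of -4.30 (SE 0.66, limma adjusted p = 0.0599) was the lowest of all genes but missed the threshold of 0.05. The 25th percentile of the arrays lay between 5.69 and 5.78. Means below it are called dim here, because the deposited values do not show whether they are above background, and no fold is given for them. Control replicate 2 and null replicates 2 and 3 share the leading number of their sample titles, which the labels do not explain. A measure of RNA integrity, the Gapdh 3-prime minus 5-prime signal, ran from 1.06 to 1.23 in control lungs and from 0.91 to 0.97 in null ones. It separates the groups, while the same measure of Actb overlapped (0.46 to 0.65 in control lungs, 0.43 to 0.47 in null ones). The part of RNA integrity in the differences below was not tested. Null replicate 1 stood apart from the other 5 arrays: its correlation with each of them over all probe sets was 0.972 to 0.978, and the other pairs of arrays reached 0.979 to 0.992.

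Among the airway oxidase genes, the dual oxidase Duox1 and its maturation factor Duoxa1 read higher in every null lung than in any control. That pattern was seen in 10.8% of all genes. Duoxa1 read 5.94, 5.88 and 5.94 in the control replicates and 8.61, 9.48 and 9.13 in the null replicates. The controls lay within 0.1 of each other while the null lungs spread over almost 1 unit, with replicate 1 lowest and replicate 2 highest. The means were 5.92 ± 0.03 and 9.07 ± 0.44 (log2, SD, n = 3 each), a difference of 3.15 (SE 0.22) or 8.9-fold, the 26th largest positive difference among 18193 genes. The control mean lies just above the dim range. In RNA of whole lungs, more RNA per cell and more cells of a type cannot be told apart, here and for every gene below.

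Duox1, the oxidase that Duoxa1 escorts to the surface, read 5.12, 4.81 and 5.32 in control replicates 1 to 3. It read 6.55, 7.33 and 6.98 in null replicates 1 to 3, in the same order as Duoxa1. The means were 5.08 ± 0.26 and 6.95 ± 0.39 (log2, SD, n = 3 each), 1.87 units apart on the deposited scale (SE 0.23). The control mean is dim and the null mean is not, so the distance is taken from a control level not shown to be above background. Shf, the protein-coding gene on the far side of Duox1, was looked at after its values were seen and had overlapping groups (7.65 ± 0.37 and 7.80 ± 0.34, SD, n = 3 each).

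Duoxa2, which escorts Duox2, was dim in all 6 lungs. It read 4.47, 4.35 and 4.19 in controls and 5.27, 4.89 and 4.91 in null lungs, so the groups did not overlap, and null replicate 1 was the highest rather than the lowest. The difference of 0.69 (SE 0.15) lies between 2 dim means, and no level of Duox2 stands beside it. Lpo was also dim throughout, with 4.61, 4.49 and 4.55 in controls and 4.67, 4.78 and 4.26 in null lungs. Its groups overlapped and differed by 0.02 (SE 0.16, 95% interval -0.36 to 0.40).

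**Figure D1:**
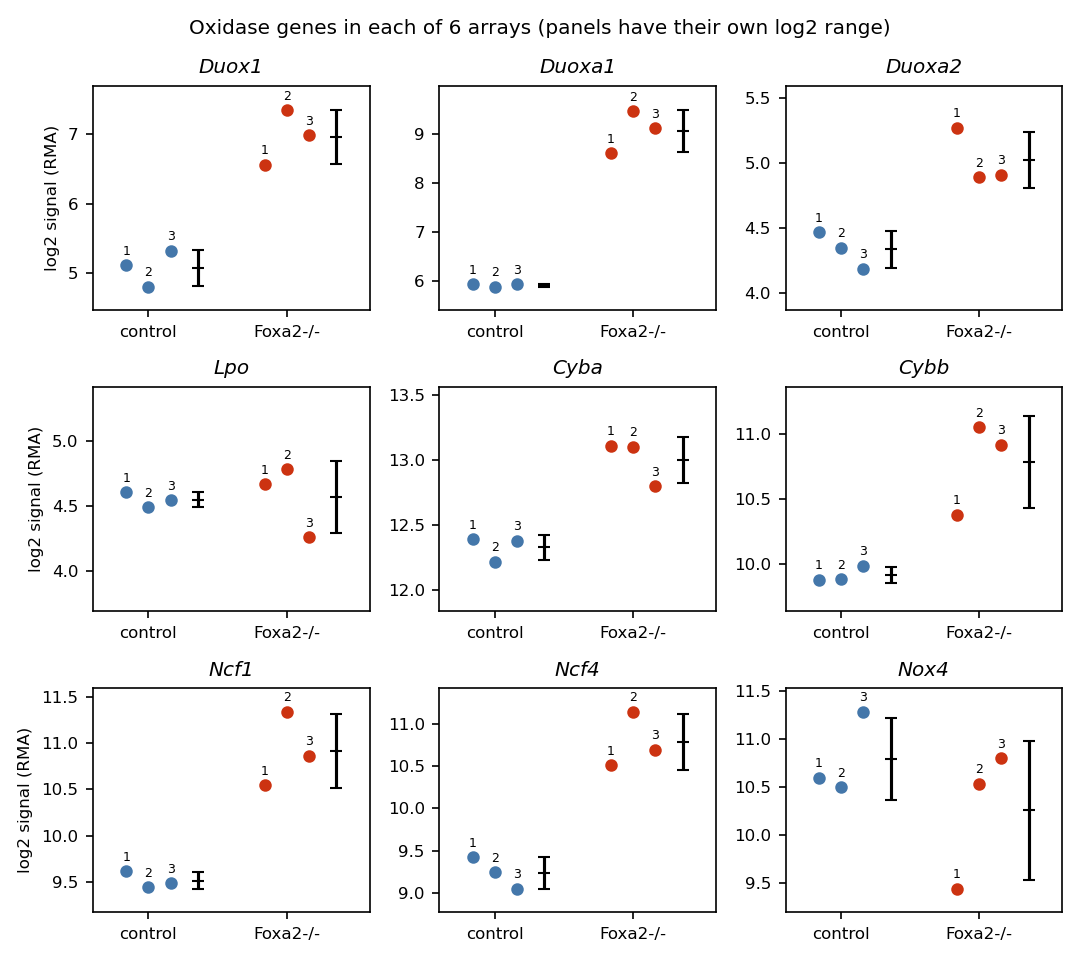
Log2 signal of the 9 oxidase genes in each array (points numbered by replicate), with the mean and SD of each group beside them; each panel has its own range. Duoxa1 null lungs lie between 8.61 and 9.48 against 5.88 to 5.94 in controls, while the groups of Lpo and Nox4 overlap.

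All 4 phagocyte oxidase subunits measured read higher in every null lung than in every control, a pattern seen in 10.8% of all genes. The subunits were chosen with this contrast known, so the count describes them only. Ncf4, the p40phox subunit that binds phosphoinositide on the phagosome, read 9.42, 9.24 and 9.05 in controls and 10.51, 11.14 and 10.69 in null lungs. Its difference was 1.54 (SE 0.20), or 2.91-fold. Ncf1, the p47phox organiser, read 9.61, 9.44 and 9.48 in controls against 10.55, 11.34 and 10.86 in null lungs. Its difference was 1.41 (SE 0.21), or 2.65-fold. In both genes null replicate 2 was highest and null replicate 1 lowest, as for Duox1.

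Cybb, the catalytic subunit, read 9.88, 9.89 and 9.99 in controls and 10.38, 11.06 and 10.92 in null lungs. Its difference was 0.87 (SE 0.19), or 1.82-fold, and null replicate 1 lay nearer to the controls than to the other null lungs. Cyba, the partner that stabilises Cybb and also serves Nox4, read 12.39, 12.22 and 12.38 in controls and 13.11, 13.10 and 12.80 in null lungs. Its difference was 0.67 (SE 0.13), or 1.6-fold, and here null replicate 3 was the lowest. The cytosolic subunits thus differed by more log2 units than the membrane subunits in these lungs, though each rests on its own probe sets and the gap between them was not tested.

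Repeated probe sets of a gene gave the same sign. The 3 of Cybb differed by 0.87, 1.04 and 1.06, and the 3 of Ncf1 by 1.41, 1.53 and 1.69, the brightest probe set giving the smallest difference in each gene. The dimmest probe set of Ncf1, with a control mean of 5.12 ± 0.12 (SD, n = 3), is dim in controls.

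Nox4 differed from the other oxidases in having overlapping groups and a lower mean in null lungs. Its brightest probe set read 10.60, 10.50 and 11.28 in controls and 9.44, 10.53 and 10.80 in null lungs. Null replicate 1 stood well below the other 5 arrays and control replicate 3 above them. The difference was -0.54 (SE 0.39, 95% interval -1.47 to 0.40), and -0.13 without null replicate 1. It was 0.17 when restricted to the arrays with a shared title number, 1 control and 2 null. The other probe set gave -0.64 (SE 0.42), with 7.60 in null replicate 1 and 8.68 to 9.67 elsewhere.

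**Figure D2:**
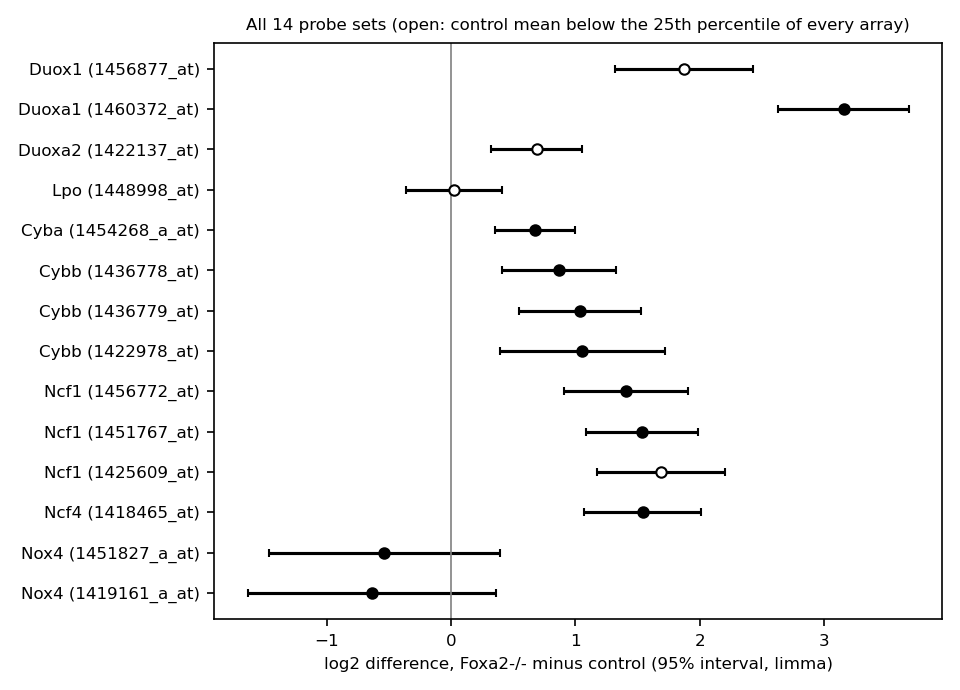
Log2 difference of each of the 14 probe sets, null minus control, with its 95% interval from limma; open points have a dim control mean. Differences run from 3.15 for Duoxa1 to -0.64 for Nox4.

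In limma's fit over 18193 genes, 2246 (12.3%) had an unadjusted p under 0.05. A Benjamini-Hochberg adjusted p under 0.05 was found for 104 (0.572%), 0.473% higher and 0.0989% lower in null lungs. These shares stand beside the counts of the gene lists below. The lists, like the members, were chosen with earlier results of these data known. Their counts and p values therefore describe the lists and are not evidence of an excess over all genes. Of the 9 oxidase genes 3 were called, all higher, namely Duox1, Duoxa1 and Ncf4. In 7 of the 9, every null array lay above all controls, a pattern seen in 10.8% of all genes, and in none did every null array lie below them, a pattern seen in 8.73%. The median difference was 0.87 over the 9 and 0.01 over all genes. Because the genes were chosen with this contrast known, these counts describe them and are not evidence of a shift. The calls depended on the processing and on single arrays. With the title number as a fixed block, only the 3 arrays that share a number, 1 control and 2 null, inform the contrast. That setting therefore gives differences only, 2.35 for Duox1 and 3.42 for Duoxa1. With cyclic loess only Duoxa1 was called. Array weights or a random block gave 6 members, and the random block rests on the same 3 arrays that share a number. None of the 9 was called when control replicate 1 or 2 or null replicate 3 was left out, fits in which no gene at all was called (1654 to 2111 genes had an unadjusted p under 0.05). Only Duoxa1 was called without control replicate 3 or without null replicate 2, and 5 were called without null replicate 1. Without that array, which stood apart from the rest, the differences were 2.07 for Duox1, 3.38 for Duoxa1, 0.56 for Duoxa2 and -0.03 for Lpo. They were 0.62 for Cyba, 1.07 for Cybb, 1.59 for Ncf1 and 1.68 for Ncf4. At the level of probe sets 1 of the 14, that of Duoxa1, was called.

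**Figure D3:**
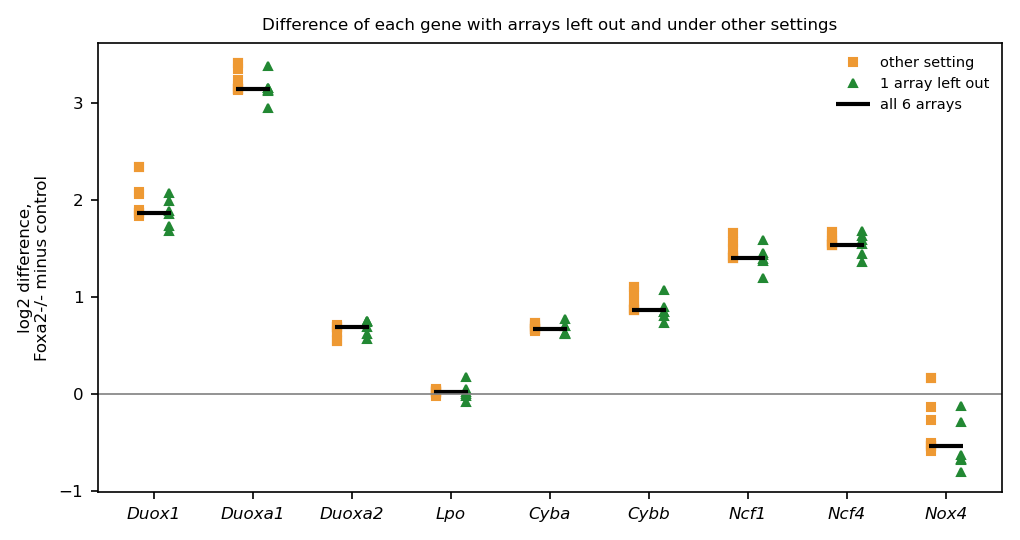
Log2 difference of each oxidase gene with all 6 arrays (black bar), with each array left out (green) and under the other settings tried (orange). Duoxa1 stays between 2.95 and 3.42 and Duox1 between 1.68 and 2.35, while Nox4 runs from -0.81 to 0.17.

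Levels of cell type markers stand beside these differences. The marker lists were chosen with earlier results of these data known, so their counts are descriptions. The 14 macrophage and pan-myeloid markers averaged 10.68 to 10.74 in the control arrays and 11.33 to 11.89 in the null arrays, in the same order of null arrays as Ncf1 and Ncf4. Of these markers 5 rose, none fell and 9 did not pass, and 11 of the 14 had an unadjusted p under 0.05. Cd68, a lysosomal protein of macrophages, rose by 1.45 (SE 0.13, limma adjusted p = 0.0198), and Itgax, an integrin chain found on alveolar macrophages, by 1.94 (SE 0.23, limma adjusted p = 0.036). Tyrobp, a signalling adaptor, rose by 1.01 and Spi1, which encodes PU.1, by 1.10 (limma adjusted p = 0.0429 and 0.0493). The fifth was Fcer1g, an Fc receptor chain. Each of the 5 calls ended without control replicate 1, 2 or 3 or null replicate 2 or 3, and those of Spi1 and Fcer1g also without null replicate 1. Fcer1g was picked after its values were seen, as was Ptprc, the pan-leukocyte marker, whose groups overlapped (0.36, SE 0.49).

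Set against the mean of the 14 myeloid markers in the same array, Cybb differed by -0.01 and Cyba by -0.21 between the groups, and the groups overlapped. On that scale Ncf1 differed by 0.53 and Ncf4 by 0.66, and every null array stayed above all controls. The scale depends on the markers chosen: their own differences ran from 0.18 to 1.94, a range that holds those of Ncf1 and Ncf4. The part of cell number in the subunits' differences was not tested. Of 6 eosinophil markers measured 3 rose, and 4 of the 6 had an unadjusted p under 0.05. The list averaged 6.30 to 6.90 in controls, against 7.79 to 8.88 in null lungs. Prg2, the major basic protein, rose by 3.50 (SE 0.26, limma adjusted p = 0.0152). That call held without control replicate 3 or null replicate 1 (limma adjusted p = 0.0469 and 0.0138) and ended without any of the other arrays. Epx is given with the peroxidases, and Prg3, another granule protein, rose from a dim 4.85 ± 0.30 to 6.39 ± 0.27 (SD, n = 3 each; limma adjusted p = 0.0429), a call that ended without any 1 array.

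None of the 9 neutrophil markers measured passed in limma's fit, and none had an unadjusted p under 0.05. The list averaged 8.59 to 9.25 in controls, against 8.82 to 9.33 in null lungs. Its smallest p values were those of Csf3r (0.29, SE 0.15) and Cxcr2 (0.59, SE 0.34), with limma adjusted p of 0.498 and 0.557. Elane, the neutrophil elastase, picked after its values were seen, was dim in both groups (4.29 and 4.30).

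**Figure D4:**
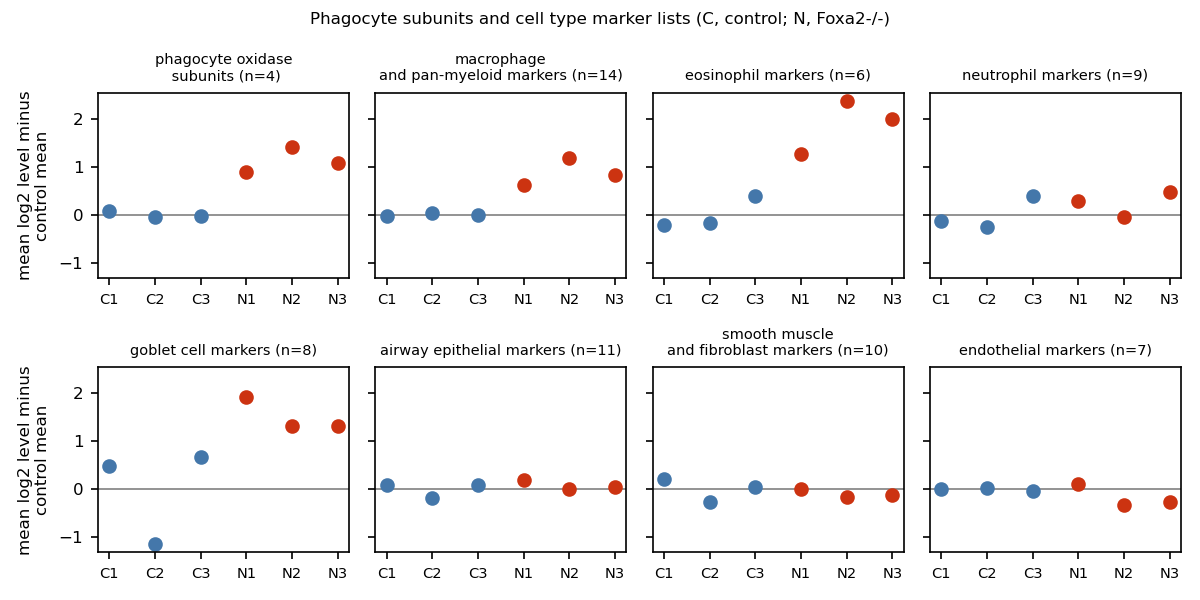
Mean log2 level of the phagocyte oxidase subunits and of 7 marker lists in each array, minus the mean of the 3 controls (C1 to C3, control; N1 to N3, null). The phagocyte subunits, myeloid markers, eosinophil markers and goblet cell markers have every null array above all controls, and the other lists overlap.

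For the dual oxidases the corresponding cells are epithelial. The 11 airway epithelial markers averaged 11.32 to 11.59 in controls, against 11.51 to 11.69 in null lungs, and none passed in limma's fit (3 with an unadjusted p under 0.05). Cyp2f2, a club cell enzyme, differed by -0.51 (SE 0.13, limma adjusted p = 0.165) and Krt8, a keratin of simple epithelium, by 0.55 (SE 0.16, limma adjusted p = 0.221). Set against the mean of these markers in the same array, Duox1 differed by 1.79 and Duoxa1 by 3.07, close to their unadjusted differences. The 8 goblet cell markers averaged 6.98 to 8.79 in controls, against 9.44 to 10.05 in null lungs, with control replicate 2 lowest. None of them passed (4 with an unadjusted p under 0.05); Agr2, which folds mucins, differed by 2.16 (SE 0.38, limma adjusted p = 0.0795) and Foxa3, a forkhead factor, by 1.25 (SE 0.27, limma adjusted p = 0.123). Set against the goblet list, Duoxa1 differed by 1.63 and Duox1 by 0.35, with overlapping groups in both.

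For Nox4, the 10 smooth muscle and fibroblast markers averaged 11.75 to 12.24 in controls, against 11.86 to 12.03 in null lungs, and none passed or had an unadjusted p under 0.05. Tagln, a smooth muscle actin-binding protein, differed by -0.30 (SE 0.19, limma adjusted p = 0.586) and Pdgfrl by 0.50 (SE 0.31, limma adjusted p = 0.588). The mean of this list in null replicate 1, where Nox4 was lowest, was 12.03. The 7 endothelial markers averaged 12.40 to 12.47 in controls, against 12.11 to 12.54 in null lungs, and none passed (1 with an unadjusted p under 0.05). Tek, an endothelial receptor, differed by -0.30 (SE 0.11, limma adjusted p = 0.333) and Kdr, a VEGF receptor, by -0.36 (SE 0.18, limma adjusted p = 0.496).

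Other genes of the same chemistry were read in 5 lists, also chosen with earlier results of these data known. Their counts describe the lists and are not evidence of an excess. Of 64 measured genes in these lists, 2 rose, none fell and 62 did not pass, with a median difference of 0.04. The share called among all genes was 0.572%. An unadjusted p under 0.05 was found for 16 of the 64, and for 12.3% of all genes. Among 11 other NADPH oxidase genes none passed (3 with an unadjusted p under 0.05). Those 3 were Hvcn1, the voltage-gated proton channel that balances oxidase charge (0.96, SE 0.20, limma adjusted p = 0.108), Vav1, an exchange factor that activates Rac proteins (1.14, SE 0.25, limma adjusted p = 0.131), and Rac2, the Rac protein of blood cells (1.17, SE 0.27, limma adjusted p = 0.138). Every null lung lay above all controls in each of the 3, a pattern seen in 10.8% of all genes. The widely expressed Rac1 differed by -0.04 (SE 0.10), and Noxo1, the organiser of another oxidase, by -0.03 (SE 0.26), both with overlapping groups. Rac2, Rac1 and Noxo1 were picked after their values were seen. Nox1, Nox3 and Noxa1 are not analysed here.

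Both genes that rose stand in the list of other heme peroxidases and of thiocyanate or iodide carriers, of which 7 were measured and 5 did not pass. Of the 7, 3 had an unadjusted p under 0.05. Slc26a4, the anion exchanger pendrin, which can carry thiocyanate, read 6.58, 6.37 and 8.06 in controls and 11.90, 13.42 and 12.46 in null lungs, a rise of 5.59 (SE 0.55, limma adjusted p = 0.0222). Epx, the eosinophil peroxidase, read 5.58, 5.02 and 5.80 in controls, a dim mean, and 7.69, 8.09 and 7.82 in null lungs, a rise of 2.4 (SE 0.23, limma adjusted p = 0.0208). Both calls held without control replicate 3 or null replicate 1 (limma adjusted p of 0.0267 to 0.0469) and ended without any other array. Mpo, the neutrophil peroxidase encoded beside Lpo on chromosome 11, was dim and differed by 0.04 (SE 0.46), and Cftr, the chloride channel that also passes thiocyanate, by 0.37 (SE 0.12, limma adjusted p = 0.28). Both were picked after their values were seen.

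**Figure D5:**
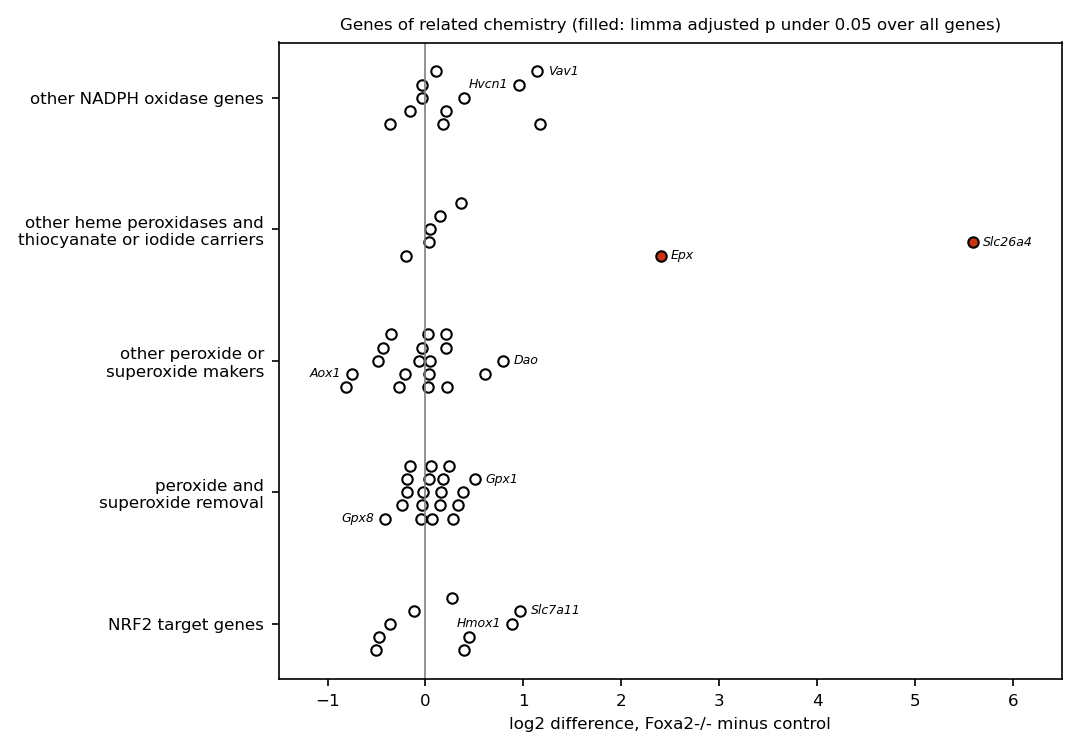
Log2 differences, null minus control, of 64 genes in 5 lists of related chemistry; each point is a gene, spread vertically for legibility, and filled points passed the test. Slc26a4 at 5.59 and Epx at 2.4 are the only filled points.

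Enzymes outside the NADPH oxidase family that make peroxide or superoxide numbered 18, of which none passed (3 with an unadjusted p under 0.05). Dao, an amino acid oxidase with a dim control mean, differed by 0.80 (SE 0.14, limma adjusted p = 0.0795), and Aox1, an aldehyde oxidase, by -0.75 (SE 0.23, limma adjusted p = 0.261). On the removal side, none of 19 dismutases, catalase, peroxidases and thioredoxin system genes passed (4 with an unadjusted p under 0.05), and their differences ran from -0.42 to 0.51. Gpx8, a glutathione peroxidase homologue of the endoplasmic reticulum, marked the lower end (SE 0.11, limma adjusted p = 0.201) and Gpx1, the cytosolic glutathione peroxidase, the upper (SE 0.15, limma adjusted p = 0.222). None of 9 genes of the NRF2 oxidant response passed (3 with an unadjusted p under 0.05). Slc7a11, the cystine importer, dim in controls, differed by 0.97 (SE 0.28, limma adjusted p = 0.22), and Hmox1, heme oxygenase, by 0.88 (SE 0.27, limma adjusted p = 0.261). Nqo1 and Gclm, chosen after their values were seen, had lower means in null lungs, by -0.47 and -0.51, with overlapping groups.

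In human airway cells type 2 cytokines are known to raise DUOX1, and interferon gamma to raise DUOX2. Of 11 interleukin-4 and interleukin-13 genes and targets 2 rose, none fell and 9 did not pass. An unadjusted p under 0.05 was found for 8 of the 11, in a list chosen with earlier results of these data known. Ccl17 rose by 2.44 (SE 0.29, limma adjusted p = 0.036) and Ccl24 by 3.63 (SE 0.48, limma adjusted p = 0.0429). Both are chemokines of type 2 inflammation. The call of Ccl17 held without null replicate 1 (limma adjusted p = 0.0401), and no other array could be left out with either call kept. The list averaged 9.11 to 9.68 in controls and 10.52, 11.48 and 10.92 in null replicates 1 to 3, the order seen for Duox1 and Duoxa1. Of 7 interferon gamma genes measured none passed (1 with an unadjusted p under 0.05); Ciita, the activator of class II genes, differed by 1.07 (SE 0.24, limma adjusted p = 0.14) and Irf1 by 0.41 (SE 0.18, limma adjusted p = 0.443). That list averaged 8.18 to 9.0 in controls and 8.47, 9.77 and 9.52 in null replicates 1 to 3, and the groups overlapped. Its null arrays stood in the same order as those of Duox1, as did those of the myeloid and eosinophil lists. The goblet list had null replicate 1 highest, at 10.05. Whether type 2 cytokines or interferon gamma bear on the dual oxidases was not tested.

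The genes most like a member in pattern were found by the root mean square difference between values centred on each gene's own mean over the 6 arrays, among 16287 genes. Nearest to Duox1 were Arpp21 (0.15 log2 units, dim in controls), Siglece, a myeloid lectin (0.15), and Ccl9, a chemokine (0.16). For Cybb they were C1qb, a complement subunit (0.06), Coro2a (0.06) and Glrx, glutaredoxin (0.09). C1qb read 12.18 to 12.20 in controls and 12.61, 13.26 and 13.27 in null lungs, with null replicate 1 again nearest the controls. Nearest to Nox4 were Vnn3 (0.09), Slc9b2 (0.09) and Nr1d2 (0.10), a repressor of the circadian clock. Nr1d2 read 10.76 in null replicate 1, 12.33 in control replicate 3 and 11.71 to 11.87 in the other 4 arrays. The measure is a description over 6 arrays and says nothing of shared function.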

How the data were processed

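Total RNA of whole lungs, 3 control and 3 Foxa2-/- samples, was hybridised to 1 Affymetrix array each. The authors deposited log2 values per probe set, made with RMA (background correction, equalisation of the arrays, summary of probes) per the submitters' processing notes. Its version is not given in the sources. The scale follows from the range, 2.36 to 14.88, and array medians were 7.85 to 7.91. RMA hides a shift of most genes and can compress differences at the ends of the scale. Scanner files were not used here, so dim probe sets cannot be called absent, and 3 arrays per group limit every estimate.

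Of 45101 probe sets 64 controls were left out. Each of 18193 genes was represented by its brightest single-gene probe set (platform annotation). The null and control arrays were set against each other in R 4.3.3 by limma 3.58.1 (lmFit and eBayes without covariates, two-sided), with Benjamini-Hochberg adjustment over all genes, a threshold of 0.05 and 95% intervals. The gene test was tested on simulated data. Replicate numbers follow accession order and pair nothing. Members, gene lists and motifs were chosen with earlier results of these data known. Named genes were all members; up to 4 called genes of each list, or otherwise the 2 with the smallest p; and the 3 genes nearest to Duox1, Cybb and Nox4. Genes picked later are named as such. Sequences are from RefSeq (GRCm38.p6). Alternatives were median centring, cyclic loess, a filter on dim genes, trend and robust eBayes, weights per array, a block for the title number (fixed, or random with statmod 1.5.0), restriction to 1 title number, the mean of probe sets, every probe set, a threshold of 0.1, and each array left out.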

Additional observations from a re-analysis of the deposited data

How the results depend on the processing

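Counts of called genes moved more than the differences did. Against 104 genes, 3 members, 2 pathway genes and 8 marker genes called with all arrays, cyclic loess gave 48 genes, 1 member and 4 markers, and array weights gave 607 genes, 6 members, 4 pathway genes and 14 markers. The title number as a random block gave 399 genes and 6 members. Those counts rest on a correlation of 0.603 between arrays that share a number, and only 3 arrays do. As a fixed block the title number leaves 1 control and 2 null arrays to inform the contrast, so no count is given for that setting. With every probe set tested, 45 probe sets, 1 of a member and 5 of markers, were called, and at an adjusted p under 0.1 there were 320 genes and 5 members. With 1 array left out the counts ran from 0 to 249 genes, 0 to 5 members, 0 to 2 pathway genes and 0 to 6 markers. Leaving out control replicate 1 or 2 or null replicate 3 gave 0 of each (1654 to 2111 genes at an unadjusted p under 0.05). No called member changed sign in any setting. Duox1 ran from 1.68 to 2.35, Duoxa1 from 2.95 to 3.42 and Ncf4 from 1.36 to 1.68. Among members not called, Lpo ran from -0.08 to 0.18 and Nox4 from -0.81 to 0.17, both crossing 0. The filter on dim genes kept genes whose mean over all 6 arrays was above the 25th percentile of such means. This is another cut than the mark for dim group means. It left out Duox1, Duoxa2 and Lpo, so none of these has a value there. The restriction to 3 arrays holds 1 control and gives differences only, the same as those of the fixed block. The labels give no replicate numbers shared by the groups, so the title number was the only block that could be tried.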
